A study of Mus musculus with 8 samples.

Results

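The activators of the circadian clock and the nuclear receptor loop that controls them were followed in the pancreas of obese and lean mice. The 8 genes are Arntl, Clock and Npas2, the receptor genes Nr1d1, Nr1d2 and Rora, and the repressor genes Nfil3 and Bhlhe40, and all of them were found by symbol among the 15047 genes of the deposited values. They were chosen from earlier results on these same values, so their levels and differences below are a description and carry no p. RNA-Seq was made from total pancreas RNA of 8 male mice, 1 library per mouse. The 3 LFD mice and 3 HFD mice were C57BL/6 WT, fed a low-fat diet or a diet with 60% of its calories from fat for 10 weeks from 4 weeks of age. The 2 ob/ob mice were C57BL/6J, were leptin-deficient and received standard chow from the same age. Genotype and diet thus differ together between them and the other groups, and obesity differs as well against LFD. All 8 mice carried, by the study's account and not by the labels, an orthotopic transplant of mT organoids, tumour organoids from a mouse model driven by Pdx1-Cre. The bulk RNA therefore may hold both host and transplant cells, and in bulk tissue fewer cells of a type and less RNA per cell cannot be told apart. The time of day at which the pancreas was taken, and the light schedule, are not given in the sources used here.

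The clock is a feedback loop of transcription. BMAL1, the product of Arntl, pairs with CLOCK or its relative NPAS2 and drives E-box genes, among them the Per and Cry repressors, the REV-ERB receptors encoded by Nr1d1 and Nr1d2, and the D-box activator Dbp. REV-ERBs repress and RORs activate Arntl through the same response elements, which sets Arntl and the REV-ERB genes to opposite times of day in most tissues, the pancreas included. NFIL3 represses through D-boxes, and BHLHE40, also called DEC1, competes at E-boxes and responds to hypoxia and inflammation as well.

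The promoters of Arntl, Nr1d2 and Nr1d1 are shown because the results below turn on these genes. Each is 300 bases, 250 before and 50 after the RefSeq start on GRCm38.p6, written in the direction of transcription, with matches to the letters searched in capitals. The receptor element core AGGTCA and its variant AGGTTA are marked in Arntl, AGGTCA in Nr1d2, and AACGTG, the reverse complement of the E-box variant CACGTT, in Nr1d1.
Arntl, plus strand, chr7:113207261-113207560: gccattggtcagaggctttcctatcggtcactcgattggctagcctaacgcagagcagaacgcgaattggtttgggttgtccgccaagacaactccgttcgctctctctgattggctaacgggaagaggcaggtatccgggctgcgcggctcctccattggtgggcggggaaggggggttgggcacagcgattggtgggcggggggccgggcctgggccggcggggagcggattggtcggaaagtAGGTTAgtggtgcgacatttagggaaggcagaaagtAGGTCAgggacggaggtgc
Nr1d2, minus strand, chr14:18239057-18239356: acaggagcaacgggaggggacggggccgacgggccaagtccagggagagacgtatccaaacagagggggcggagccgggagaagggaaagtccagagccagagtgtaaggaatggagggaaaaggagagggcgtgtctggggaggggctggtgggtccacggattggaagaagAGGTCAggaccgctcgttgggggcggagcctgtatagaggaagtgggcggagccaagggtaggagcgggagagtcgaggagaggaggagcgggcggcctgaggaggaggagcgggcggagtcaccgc
Nr1d1, minus strand, chr11:98775328-98775627: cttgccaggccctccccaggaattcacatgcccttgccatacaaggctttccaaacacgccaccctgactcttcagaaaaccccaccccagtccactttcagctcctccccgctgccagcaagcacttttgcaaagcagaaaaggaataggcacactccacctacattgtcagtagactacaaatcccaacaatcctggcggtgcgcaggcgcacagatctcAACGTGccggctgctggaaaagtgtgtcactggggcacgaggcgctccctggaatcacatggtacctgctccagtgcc

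RefSeq gave 10 promoters for 7 of the 8 genes, all but Bhlhe40, and they were searched on both strands for the E-box CACGTG, its variant CACGTT, the receptor core AGGTCA, its variant AGGTTA and the D-box TTANGTAA, none of which contains another. AGGTCA was present in promoters of 4 genes, Arntl, Clock, Nfil3 and Nr1d2, and in 16.3% of all 32851 promoters. AGGTTA was present for Arntl alone and in 8.49% of all promoters, CACGTT for Nr1d1 alone and in 4.68%. The letters CACGTG (7.15% of all promoters) and TTANGTAA (2.32%) are in none of the 10 windows. These are matches of letters in a short window and no measure of binding.

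Values are rlog values, the log2 scale of the deposited table, on which a difference of 1 is a change by a factor of 2 and differences of weakly expressed genes are shrunk. They are not per length, so levels are compared between mice and never between genes. Over all genes the median ran from 7.09 to 7.25 in the 8 mice. The labelled tissue was checked by 28 acinar genes, the digestive enzyme genes of the exocrine pancreas and their regulators, all of which were measured. They made up 32.2 to 34.7% of the summed values, taken back to the linear scale, in LFD, 12.1 to 33.8% in HFD and 13.9 to 33.9% in ob/ob. Their mean rlog value was 17.05 to 17.52 in LFD, but 17.38, 15.30 and 13.37 in HFD replicates 1, 2 and 3 and 16.69 and 13.70 in ob/ob replicates 1 and 2. HFD replicate 1 thus stood with the LFD mice, and the obese mice differed widely from each other in acinar content. With limma across all 15047 genes, 0% passed an adjusted p under 0.05 in HFD against LFD, 0% in ob/ob against LFD and 0% in ob/ob against HFD, so that none of the 8 genes did. In HFD against LFD this depended on the fit. With array weights 6656 of all genes passed, 5 of the 8 among them, and without HFD replicate 1 2812 passed, 4 of the 8 among them. The 8 genes were chosen from these values, so these counts are no test of them. The array weight was 9.36 for HFD replicate 2, against 0.273 and 0.529 for replicates 1 and 3. In the limma fit given first, with all 8 mice and no array weights, the smallest adjusted p values were 0.0864, 0.135 and 0.883. At an unadjusted p under 0.05, that same fit counted 2985 genes (19.8%), 2831 genes (18.8%) and 588 genes (3.91%).

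Arntl (chromosome 7, 113207465 to 113314126, plus strand, in the Gencode M21 annotation of GRCm38) encodes BMAL1, the partner shared by CLOCK and NPAS2. Its rlog value was 6.47, 5.78 and 5.77 in the LFD mice, 8.07, 7.44 and 7.57 in the HFD mice, and 7.12 and 7.21 in the ob/ob mice. All 5 obese mice lay above all LFD mice, and the 3 groups were separate from each other, in the order HFD, ob/ob, LFD. The HFD mean was 7.70 ± 0.33 (SD, n = 3), the ob/ob mean 7.17 ± 0.07 (SD, n = 2) and the LFD mean 6.01 ± 0.40 (SD, n = 3). HFD was higher than LFD by 1.69 (SE 0.27), a factor of 3.22, and this difference was larger in size than that of 97.8% of all genes. ob/ob was higher than LFD by 1.16 (SE 0.30), a factor of 2.23, against the same 3 LFD mice. The difference between ob/ob and HFD was -0.53 (SE 0.30).

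Npas2 (chromosome 1, 39193731 to 39363236, plus strand) can take the place of CLOCK as the partner of BMAL1. Its rlog value was 3.45, 2.81 and 3.03 in LFD, 4.75, 3.95 and 4.57 in HFD, and 4.89 and 2.92 in ob/ob. HFD lay above LFD in every mouse, whereas the ob/ob mice were split, with the highest value of all mice in replicate 1 and a value within the LFD range in replicate 2. The difference of means was 1.33 (SE 0.50) for HFD and 0.81 (SE 0.55) for ob/ob, and without ob/ob replicate 1 the latter was -0.18. Its mean rlog value is under 5, where the transformation shrinks differences, and the filter at that value leaves no value for it.

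Clock (chromosome 5, 76209868 to 76304792, minus strand), whose protein is the usual partner of BMAL1, was at 9.89, 9.68 and 9.90 in LFD, 10.62, 9.56 and 9.77 in HFD, and 9.94 and 9.78 in ob/ob. One HFD mouse, replicate 1, was high, and the other values of all groups lay together. The differences were 0.16 (SE 0.26) for HFD and 0.04 (SE 0.30) for ob/ob, both smaller than their errors.

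Nr1d2 (chromosome 14, 18204054 to 18239127, minus strand) encodes REV-ERB beta, a heme-binding repressor of Arntl. Its rlog value was 10.21, 10.40 and 10.40 in LFD, 8.98, 8.67 and 8.85 in HFD, and 9.70 and 9.59 in ob/ob. All 5 obese mice lay below all LFD mice, and the groups were again separate, in the reverse order of Arntl, LFD, ob/ob, HFD. The time of day of sampling is not given, so a difference in it between groups cannot be told apart from diet or genotype here. The spread within groups was small, with an LFD mean of 10.34 ± 0.11 (SD, n = 3), an ob/ob mean of 9.64 ± 0.08 (SD, n = 2) and an HFD mean of 8.83 ± 0.15 (SD, n = 3). The difference from LFD was -1.51 (SE 0.15) in HFD, a factor of 2.84, and -0.69 (SE 0.17) in ob/ob, a factor of 1.62. ob/ob was higher than HFD by 0.81 (SE 0.17). In size, these exceeded 96.3%, 73.2% and 94.3% of all genes in their comparisons.

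Nr1d1 (chromosome 11, 98767932 to 98775333, minus strand) encodes REV-ERB alpha, the closest relative of REV-ERB beta. Its rlog value was 5.28, 5.86 and 6.10 in LFD, 4.88, 5.21 and 6.00 in HFD, and 7.14 and 6.30 in ob/ob. HFD and LFD overlapped, and both ob/ob mice lay above the other 6. With quantile normalization, ob/ob and LFD overlapped as well, with a difference of 0.78. The difference was -0.38 (SE 0.39) for HFD against LFD, 0.97 (SE 0.43) for ob/ob against LFD and 1.36 (SE 0.43), a factor of 2.56, for ob/ob against HFD. In ob/ob against LFD, Nr1d1 was thus higher where Nr1d2 was lower. The mean of 9 islet genes was 10.58 and 9.56 in ob/ob, against 8.92 to 9.90 in LFD and 8.37 to 9.13 in HFD, and 6 of the 9 had ob/ob values above all LFD mice, beside 24.1% of all genes. The part of islet content in the Nr1d1 values was not tested.

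Nr1d1 shares 263 of its 3077 exonic bases with Thra, the thyroid hormone receptor alpha gene on the other strand, and the sources used here do not state whether the counting used strand. The Thra mean was 7.23 ± 0.09 (SD, n = 3) for LFD, while HFD had 7.60 ± 0.16 (SD, n = 3) and ob/ob had 7.75 ± 0.34 (SD, n = 2). Its mean was above that of LFD in both obese groups, by 0.37 and 0.52, whereas the Nr1d1 mean was above it in ob/ob and not in HFD. Arntl, Bhlhe40 and Rora overlap antisense genes of the annotation, by 33, 118 and 82 exonic bases, and these partners are not in the table.

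**Figure D1:**
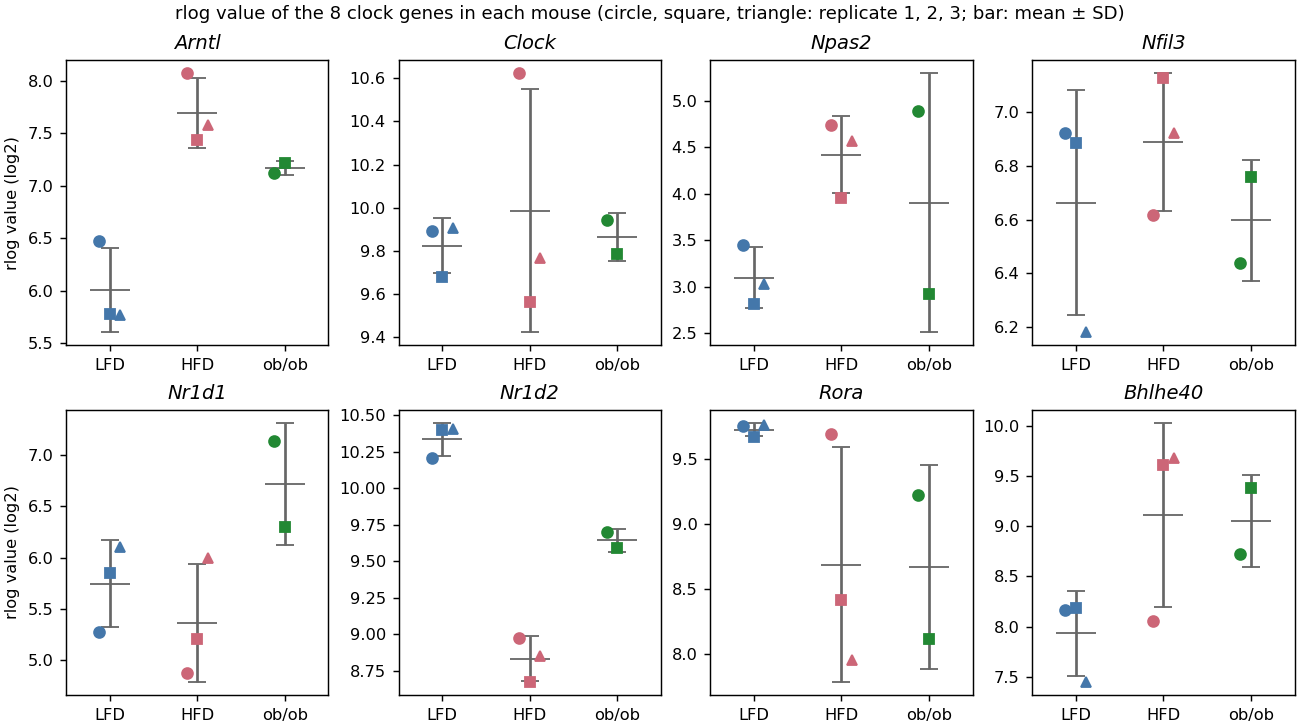
The rlog value (log2, vertical axis, a separate range for each gene) of the 8 clock genes in every LFD, HFD and ob/ob mouse. Symbols mark replicates 1, 2 and 3 and bars show the mean ± SD. Arntl is separate in all 3 groups with HFD highest, Nr1d2 is separate in the reverse order, and HFD replicate 1 lies with the LFD mice for Rora and Bhlhe40.

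Rora (chromosome 9, 68653786 to 69388246, plus strand) encodes ROR alpha, which activates Arntl from the elements that REV-ERBs occupy. It was at 9.75, 9.66 and 9.76 in LFD, 9.69, 8.42 and 7.95 in HFD, and 9.22 and 8.11 in ob/ob. The LFD mice were nearly equal, 4 of the 5 obese mice lay below them, and HFD replicate 1 lay within the LFD range. The mean differences were -1.04 (SE 0.44) for HFD and -1.06 (SE 0.49) for ob/ob, with SDs of 0.90 and 0.79 in the obese groups against 0.05 in LFD.

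Bhlhe40 (chromosome 6, 108660629 to 108666925, plus strand) was at 8.16, 8.18 and 7.45 in LFD, 8.06, 9.61 and 9.68 in HFD, and 8.73 and 9.38 in ob/ob. It was the mirror image of Rora in which mice stood out: 4 of the 5 obese mice lay above LFD and HFD replicate 1 did not. HFD was higher by 1.19 (SE 0.44) and ob/ob by 1.12 (SE 0.49), and the obese groups overlapped each other.

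Nfil3 (chromosome 13, 52967209 to 52981073, minus strand) was at 6.92, 6.89 and 6.18 in LFD, 6.62, 7.13 and 6.92 in HFD, and 6.44 and 6.76 in ob/ob. The 3 groups overlapped, and the differences were 0.23 (SE 0.27) for HFD and -0.06 (SE 0.30) for ob/ob.

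Counted by groups that do not overlap, 3 of the 8 genes separated HFD from LFD, with Arntl and Npas2 higher and Nr1d2 lower. The same held for 25.2% of all genes, 12.9% higher and 12.3% lower. For ob/ob against LFD, 5 of 8 separated, with Arntl, Nr1d1 and Bhlhe40 higher and Nr1d2 and Rora lower, beside 45.9% of all genes, 24.1% higher and 21.8% lower. For ob/ob against HFD, 3 of 8 separated, with Nr1d1 and Nr1d2 higher and Arntl lower, beside 13.3% of all genes. These counts are within 1 to 2 genes of what the shares of all genes give, and the 3 comparisons share mice. The median difference over the 8 genes was 0.19 in HFD and 0.42 in ob/ob against LFD, where the median of all genes was 0.03 and 0.04. Without HFD replicate 1, the count for HFD against LFD was 6, with Nfil3, Bhlhe40 and Rora added, beside 8516 of all 15047 genes. In ob/ob against HFD it was 6 without HFD replicate 1, beside 4406 of all genes, and 5 without ob/ob replicate 2, beside 5237. In ob/ob against LFD it was 7 without ob/ob replicate 2, beside 9215.

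**Figure D2:**
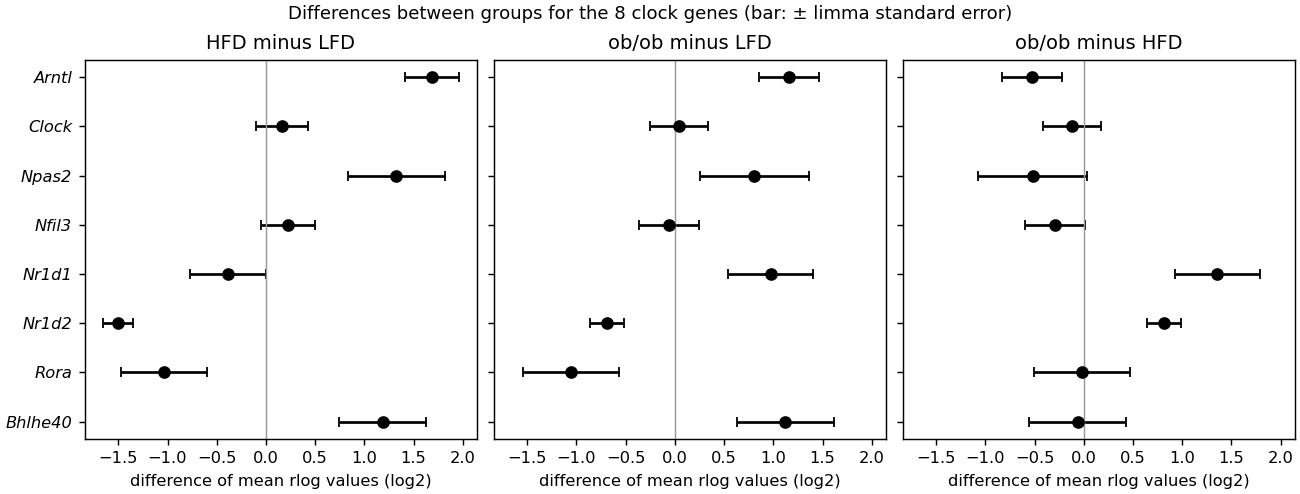
Differences of mean rlog values (log2, horizontal axis) for the 8 clock genes in HFD minus LFD, ob/ob minus LFD and ob/ob minus HFD, with bars of ± 1 limma standard error. Arntl and Nr1d2 lie on opposite sides of 0 in each panel, and Nr1d1 lies above 0 only where ob/ob is compared.

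Arntl and Nr1d2 were set against each other within each mouse, a measure chosen after their values were seen and one whose zero has no meaning. Arntl minus Nr1d2 was -3.73, -4.62 and -4.63 in LFD, -0.90, -1.23 and -1.27 in HFD, and -2.58 and -2.37 in ob/ob. This value was shifted by 3.19 in HFD and by 1.85 in ob/ob relative to LFD, and the 3 groups were separate. It leaves out Nr1d1, the other REV-ERB gene, which did not follow Nr1d2 in ob/ob. Against LFD, Nr1d1 differed by -0.38 in HFD and by 0.97 in ob/ob, where Arntl differed by 1.16. Nr1d1 minus Nr1d2 was -4.93, -4.55 and -4.30 in LFD, -4.09, -3.46 and -2.85 in HFD, and -2.56 and -3.29 in ob/ob. Each obese mouse thus had more Nr1d1 relative to Nr1d2 than any LFD mouse.

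The 8 genes were set beside the acinar level of each mouse. HFD replicate 1, at the acinar level of the LFD mice, had the highest Arntl value of all 8 mice, 2.07 above the LFD mean. By size, that deviation was rank 14 among all 15047 genes in this mouse, against ranks 727 to 2866 in the other 4 obese mice. In the same mouse Nr1d2 deviated by -1.36 at rank 124 (759 to 5413 in the other 4) and Npas2 by 1.65 at rank 48. Rora deviated there by -0.03 at rank 14056 and Bhlhe40 by 0.13 at rank 10845. In HFD replicates 2 and 3, Nr1d2 deviated by more, -1.67 and -1.49, and Npas2 by 0.86 and 1.47. A rank depends on how widely all genes deviate in that mouse. The Clock deviation of 0.80 was rank 998 in HFD replicate 1, and the Npas2 deviation of 0.86 was rank 3582 in HFD replicate 2. With the mean acinar value as a covariate in limma, the Arntl difference was 1.80 (SE 0.31) in HFD and 1.28 (SE 0.34) in ob/ob, and that of Nr1d2 was -1.43 (SE 0.16) and -0.61 (SE 0.17). The Rora difference was -0.25 (SE 0.18) in HFD and -0.20 (SE 0.20) in ob/ob, and the Bhlhe40 difference 0.51 (SE 0.30) and 0.39 (SE 0.34). Npas2 was at 1.82 (SE 0.50) and 1.34 (SE 0.56), Clock at 0.46 (SE 0.23) and 0.37 (SE 0.26), Nr1d1 at -0.50 (SE 0.44) and 0.84 (SE 0.49), and Nfil3 at 0.03 (SE 0.29) and -0.28 (SE 0.32). The covariate thus brought the values of Rora and Bhlhe40 nearer to 0 and took those of Arntl, Npas2 and Clock further from it. Those of Nr1d2 also came nearer to 0, from -1.51 in HFD and -0.69 in ob/ob. Nr1d1 moved away from 0 in HFD and towards it in ob/ob, and Nfil3 the reverse. The acinar mean itself differed between the groups, so this fit of 8 mice cannot separate acinar content from group. The part of acinar content in these differences was not tested. All 28 acinar genes had lower means in both obese groups than in LFD, 3 of 28 without overlap in HFD, beside 12.3% of all genes, and 24 of 28 in ob/ob, beside 21.8%.

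Of 7 lists of other cells, the fibroblast and myeloid lists had higher means in all obese mice than in any LFD mouse. The mean of 9 fibroblast genes was 9.42 to 9.80 in LFD, 10.23 to 11.11 in HFD and 10.74 to 11.45 in ob/ob, with 5 of 9 in HFD and 8 of 9 in ob/ob above LFD without overlap, beside 12.9% and 24.1% of all genes. The mean of 9 myeloid genes was 8.18 to 8.63, 9.29 to 10.13 and 9.74 to 10.21, with 6 of 9 and 9 of 9 above. HFD replicate 1 lay above the LFD range on both lists, at 10.23 and 9.29. The other lists went both ways against LFD. Higher means were found for 7 of 9 ductal, 0 of 9 islet, 4 of 8 lymphocyte, 4 of 6 endothelial and 3 of 6 adipocyte genes in HFD. In ob/ob these counts were 3, 7, 4, 3 and 4. No marker was at 0 in any mouse. The part of these cells in the clock gene values was not tested.

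**Figure D3:**
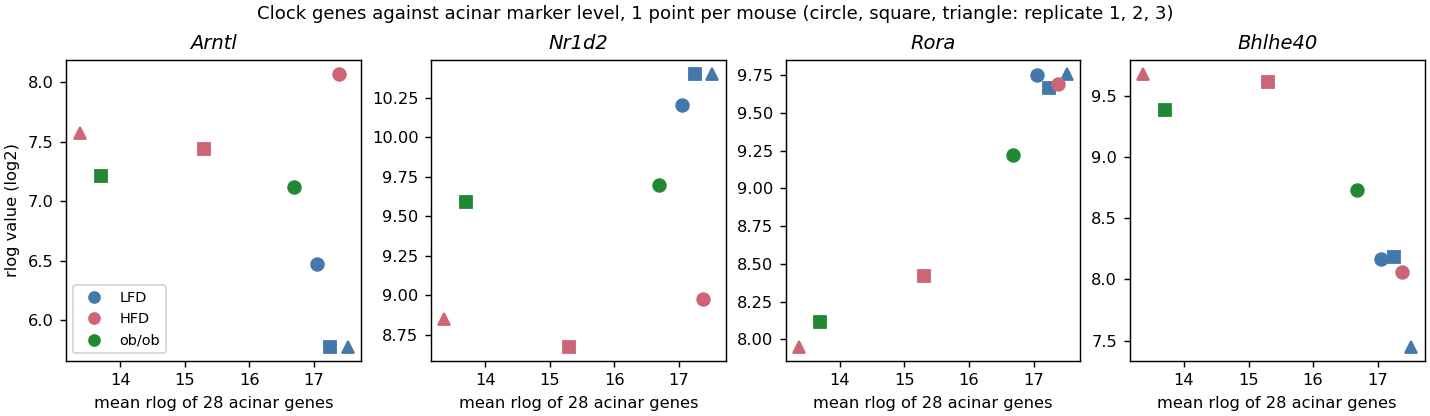
The rlog value (log2, vertical axis) of Arntl, Nr1d2, Rora and Bhlhe40 against the mean rlog value of 28 acinar genes (horizontal axis), 1 point per mouse, with colours for groups and symbols for replicates. HFD replicate 1, at 17.38 on the horizontal axis, lies with LFD for Rora and Bhlhe40 and with the obese mice for Arntl and Nr1d2.

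The genes whose profile over the 8 mice was most like that of Arntl were found by the root mean square difference after centring each gene on its mean. They were Wfdc21 (0.27), Gapt (0.29), Ankrd13d (0.30), P4ha3 (0.32) and Il1rl1 (0.35), where the Arntl profile itself has a root mean square of 0.79. Among the members, Npas2 came nearest, at rank 367. For the mirror image of the Arntl profile, Mir1938 (0.31), Dlec1 (0.31), Slc7a5 (0.33), Nr1d2 (0.33) and Mamdc4 (0.33) were nearest, so that Nr1d2 was rank 4 of the whole table. Nr1d1 was most like Syt14 (0.32), Mdm1 (0.34), Igf2 (0.36), Insrr (0.37) and Sv2a (0.37), and Nr1d2 was rank 8443 for it. These ranks describe 8 mice and carry no test.

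The rest of the clock pathway was given by 32 other genes in 5 lists, of which 30 were measured and Rorb and Avp were not in the table. For HFD against LFD, 21 of 30 had lower and 9 higher means, with a median difference of -0.36. Without overlap, 10 were lower and 2 higher, beside 12.3% and 12.9% of all genes. The lists were written with results of these values known, so their counts are a description too. With limma, 0 of 30 passed an adjusted p under 0.05, and 9 lower and 1 higher had an unadjusted p under 0.05, beside 19.8% of all genes. For ob/ob against LFD the means were lower in 18 and higher in 12, with a median of -0.21, and unadjusted p was under 0.05 for 7 lower and 2 higher, beside 18.8% of all genes, again with 0 of 30 after adjustment. For ob/ob against HFD, 20 were higher and 10 lower, and 3 higher had an unadjusted p under 0.05, Per1, Dbp and Tef, beside 3.91% of all genes, with 0 after adjustment. The smallest adjusted p in limma over these genes was 0.142, 0.137 and 0.999.

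The repressor arm, the 7 genes Per1, Per2, Per3, Cry1, Cry2, Ciart and Bhlhe41, had 6 lower means in HFD and 6 in ob/ob. Per2, which feeds back on BMAL1 and CLOCK, had the largest differences from LFD, -1.25 (SE 0.26) in HFD and -1.80 (SE 0.29) in ob/ob. Per1 had the largest one between the obese groups, 0.77 (SE 0.25). All 3 D-box activators, Dbp, Tef and Hlf, had lower means in both obese groups. Dbp was at 7.82, 8.58 and 8.32 in LFD, 6.50, 5.84 and 5.77 in HFD, and 7.64 and 7.05 in ob/ob. It had the same order of groups as Nr1d2, with differences of -2.21 (SE 0.30) in HFD and -0.90 (SE 0.34) in ob/ob.

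The 11 kinase, ligase and corepressor genes of the clock proteins had none with an unadjusted p under 0.05 in limma in any comparison. The shares of all genes were 19.8% in HFD and 18.8% in ob/ob against LFD, and 3.91% in ob/ob against HFD. In a list of 11 genes, a count of 0 does not show that the list is unchanged. Csnk1e, a kinase of PER proteins, had the largest differences from LFD, 0.70 (SE 0.35) and 0.62 (SE 0.39). Among 7 output genes, Usp2, a deubiquitinase gene under E-box control, had the largest differences, -2.02 (SE 0.32) in HFD and -1.99 (SE 0.36) in ob/ob. Por had the largest one between ob/ob and HFD, 0.40 (SE 0.46), which was within its error.

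**Figure D4:**
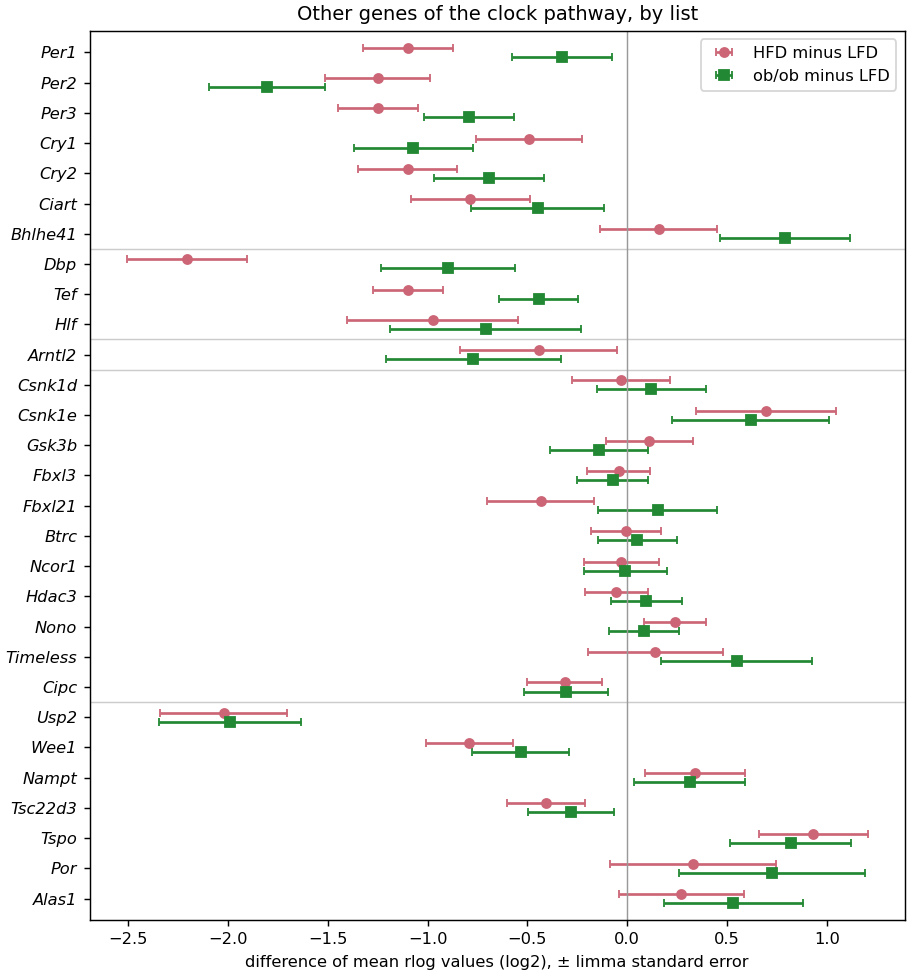
Differences of mean rlog values (log2, horizontal axis) from LFD for the other clock genes, HFD as circles and ob/ob as squares, with bars of ± 1 limma standard error and grey lines between the 5 lists. The Per, Cry and D-box genes lie mostly below 0 and the kinase, ligase and corepressor genes lie near 0.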

How the data were processed

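Total RNA of mouse pancreas was sequenced as paired-end libraries. According to the labels and the study's methods, the authors checked reads with FastQC, quantified Gencode M18 transcripts (GRCm38.p6) with Salmon 0.11.3, summed them per gene and applied the rlog transformation of DESeq2 1.22.2 to the gene counts. The deposited values are on this log2 scale, corrected for library size, for 15047 genes. The filter behind these genes, and the strand setting, are not given in the sources used here. Counts were not used, so the depth of each mouse is unknown and no counting error is given.

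Mice were grouped by their labels, and replicates are separate mice. The 8 genes and all lists were chosen with earlier results of these data known. Named beside the 8 genes were those with the largest difference in each list and comparison, Thra, and the 5 most alike profiles for Arntl and Nr1d1. Differences and standard errors came from limma 3.58.1 in R 4.3.3, fitted on all genes and all 8 mice with 1 mean per group and a variance trend, and p-values were Benjamini-Hochberg adjusted over all genes. The study tested counts with DESeq2, which these values do not allow. The values of 1 gene of these lists are not reported here, though it is counted among them. The fit was tested on simulated data. Groups do not overlap where every mouse of a group lies above every mouse of the other. Alternatives were no variance trend, only the groups compared, a filter at a mean rlog value of 5, values centred on each mouse's median, quantile normalization, limma's weights per library, a block for the replicate number, a covariate for the acinar mean, and leaving out each mouse. Coordinates are those of Gencode M21 and promoter sequences those of RefSeq, both on GRCm38.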

Additional observations from a re-analysis of the deposited data

Results flagged for a closer look

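Fbxl21, a gene for a ubiquitin ligase subunit that acts on CRY proteins, had means on opposite sides of the LFD mean in the obesity models. Its rlog value was 4.42, 4.42 and 4.00 in LFD, 4.12, 3.82 and 3.59 in HFD, and 4.50 and 4.36 in ob/ob. All 3 HFD mice lay below and both ob/ob mice above the LFD mean, although both groups overlapped the LFD range. The difference from LFD was -0.43 (SE 0.27) in HFD and 0.15 (SE 0.30) in ob/ob. The difference between ob/ob and HFD was 0.59 (SE 0.30), with an adjusted p of 0.9996 in limma over all genes. Flags were given for opposite directions only, with no rule for outlying single mice, since the groups hold 3 or 2 mice.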

How the results depend on the processing

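The number of genes with an adjusted p under 0.05 depended on the fit. For HFD against LFD it was 0, but 1 (Rnu3b1) with only the 2 groups, 6656 with array weights and 0 to 2812 with 1 mouse left out, the highest without HFD replicate 1 and 1 without either ob/ob mouse. For ob/ob against LFD it was 0, but 38 with only the 2 groups, 1 (Serpina7) with the acinar covariate, and 0 to 89 with 1 mouse left out, 89 without HFD replicate 1 and 61 without ob/ob replicate 1. For ob/ob against HFD it was 0, but 1 (Scg2) with the acinar covariate and 0 to 1 with 1 mouse left out, the 1 being Rnu3b1 without ob/ob replicate 2. Array weights were 9.36 for HFD replicate 2 and 0.273 for HFD replicate 1. The causes were not tested. Where ob/ob held 1 mouse, it was taken to vary like the other groups.

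Of the 8 genes, those without overlap numbered 3 to 6 for HFD against LFD, 5 to 7 for ob/ob against LFD and 3 to 6 for ob/ob against HFD with 1 mouse left out, where all genes without overlap numbered 3785 to 8516, 6903 to 11430 and 2006 to 7489. Of their 381 differences under the alternatives, 141 equalled the reported value to within 0.001, mostly because the alternative leaves the group means as they are, 229 moved by less than the residual SD and 11 by more, of which 1 changed the sign of a difference larger than that SD, Npas2 in ob/ob against LFD, at -0.18 without ob/ob replicate 1 and 1.79 without ob/ob replicate 2. Differences within that SD also changed sign for Clock, Npas2, Nfil3, Rora and Bhlhe40 under some alternatives. Rora and Bhlhe40 moved with the acinar covariate. With quantile normalization, 4 of the 8 genes separated ob/ob from LFD, Nr1d1 no longer among them, beside 6733 of all genes. The count for ob/ob against HFD was then 4, with Nfil3 added, beside 2088. With centring on the median of each mouse, unadjusted p was under 0.05 for 1490 higher and 1588 lower genes in HFD against LFD, against 1728 and 1257 without it. The replicate block gave 0 genes in each comparison, with 3255, 3243 and 467 at an unadjusted p under 0.05, and an Arntl difference of 1.07 in ob/ob against LFD. Same-numbered mice had correlations of their deviations from -0.28 to 0.59. Deviations from a mean of 3 or 2 mice depend on each other, so these values do not settle whether the numbers pair the mice. Depth is unknown, and ob/ob holds 2 mice.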
